A study of Mus musculus with 6 samples.

Results

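The Bcl2 family of apoptosis regulators was followed through 10 genes, Bcl2, Bcl2l1, Mcl1, Bax, Bak1, Bid, Bad, Bcl2l11, Bbc3 and Pmaip1, in LSK cells (lineage-Sca1+c-Kit+), the bone marrow fraction that holds haematopoietic stem cells and early progenitors. Every probe that is not a control and whose gene name is one of the 10 symbols was taken, which gave 22 of the 56605 probes on the array. A filter for signal well above background, met on 3 or more of the 6 arrays by 32075 probes in all, left 21 of them to be tested. The study deleted Atg5, a gene needed for the formation of autophagosomes, in blood cells. RNA was compared between 3 control samples, Atg5w/w;Vav, and 3 samples labelled Atg5f/f;Vav, which carry floxed Atg5 alleles. Both groups carried the Vav-iCre transgene, whose recombinase is active in haematopoietic cells from fetal life onwards, and both came from C57BL/6 mice at postnatal day 6 to 8. Whether each sample was 1 animal or a pool is not given in the sources used here. The n and SD below count arrays, and p-values measure the spread between these samples, which may be technical.

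Bcl2 family proteins control the permeability of the outer mitochondrial membrane. Bcl2, Bcl2l1 (Bcl-xL) and Mcl1 hold death back by binding the other members, Bax and Bak1 are the effectors that open the membrane and release cytochrome c, and the BH3-only proteins, among them Bid, Bad, Bcl2l11 (Bim), Bbc3 (Puma) and Pmaip1 (Noxa), sense stress and tip the balance. In blood formation, Mcl1 is required for the survival of haematopoietic stem cells, and Bcl2l11 sets the numbers of lymphoid and myeloid cells.

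What was measured is the brightness of 60-mer probes, and several genes were read at more than 1 place of their transcript. The 5 probes shown here lie in coding sequence, and belong to genes read at several places, so that each can be set beside the other probes of its gene. The coordinates are those of the files, on mm9. The Bax probe starts at base 174 of its transcript and covers chr7:52721469-52721624 on the minus strand, a stretch of 156 bases that includes an intron. The Bcl2 probe starts at base 1838 of transcript variant 2 and lies at chr1:108608970-108609029, minus strand. The Bcl2l1 probes start at base 493 of variant 4 (chr2:152655618-152655677) and at base 720 of variant 3 (chr2:152655185-152655244), both on the minus strand. The Bcl2l11 probe starts at base 682 of variant 1 and spans an intron between chr2:127972893 and 127983988 on the plus strand. Capitals in it mark the codons of the glycine and aspartate pair at the core of the BH3 domain, by which a BH3-only protein fits into the groove of its partner.
Bax, base 174: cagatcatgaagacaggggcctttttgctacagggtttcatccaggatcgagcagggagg
Bcl2, base 1838: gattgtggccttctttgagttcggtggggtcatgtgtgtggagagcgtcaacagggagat
Bcl2l1, base 493: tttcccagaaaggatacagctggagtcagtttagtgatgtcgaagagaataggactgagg
Bcl2l1, base 720: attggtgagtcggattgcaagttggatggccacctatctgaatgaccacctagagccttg
Bcl2l11, base 682: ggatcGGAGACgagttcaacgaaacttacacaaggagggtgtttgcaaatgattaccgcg

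The 6 arrays shared 1 slide and 1 scan. Control arrays filled 1 row of the slide and the others another, and an effect of the row cannot be told apart from that of genotype. On the control arrays 59.4% to 59.9% of the spots that are not controls were well above background, against 53.6% to 56.7% on the arrays labelled Atg5f/f;Vav. Atg5 was read by 1 probe, at base 2251 of its transcript (chr10:44083997-44084056, mm9). Its log2 signal, like every level given here relative to the 75th percentile of its own array, read 1.10, 0.93 and 1.06 in controls, against 1.46, 1.51 and 1.74 in the samples labelled Atg5f/f;Vav. The signal was therefore higher by 0.54 ± 0.12 (SE) in the samples whose label names the deletion (limma adjusted p = 0.0209). The place of this probe relative to the deleted part was not determined, so it does not check the labels, and every direction given here rests on them. All 9 LSK and stem cell markers were well above background on all 6 arrays.

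Apoptosis effector genes were higher in the Atg5f/f;Vav group, several genes that restrain or activate the effectors were higher as well, and Mcl1, Bcl2l1, Bcl2l11 and Bbc3 did not pass the test on the probe that represents each gene (the brightest on average). Of the 21 tested probes, 8 were higher, 1 was lower and 12 did not pass (limma, Benjamini-Hochberg adjusted p of 0.05 over all probes). Over all 32075 probes tested, 17.3% were higher and 17.1% were lower, so that the share of member probes that were higher, 38.1%, was above the background. Control and Atg5f/f;Vav arrays were fully apart at 10 of the 21 probes (47.6%), which is below the 55.4% found among all probes with a value on every array. With 1 probe per gene, 6 of the 10 genes were higher and 0 were lower, where 18.7% of all 20778 genes were higher and 15.3% were lower. The median log2 fold change over all genes was -0.03.

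**Figure D1:**
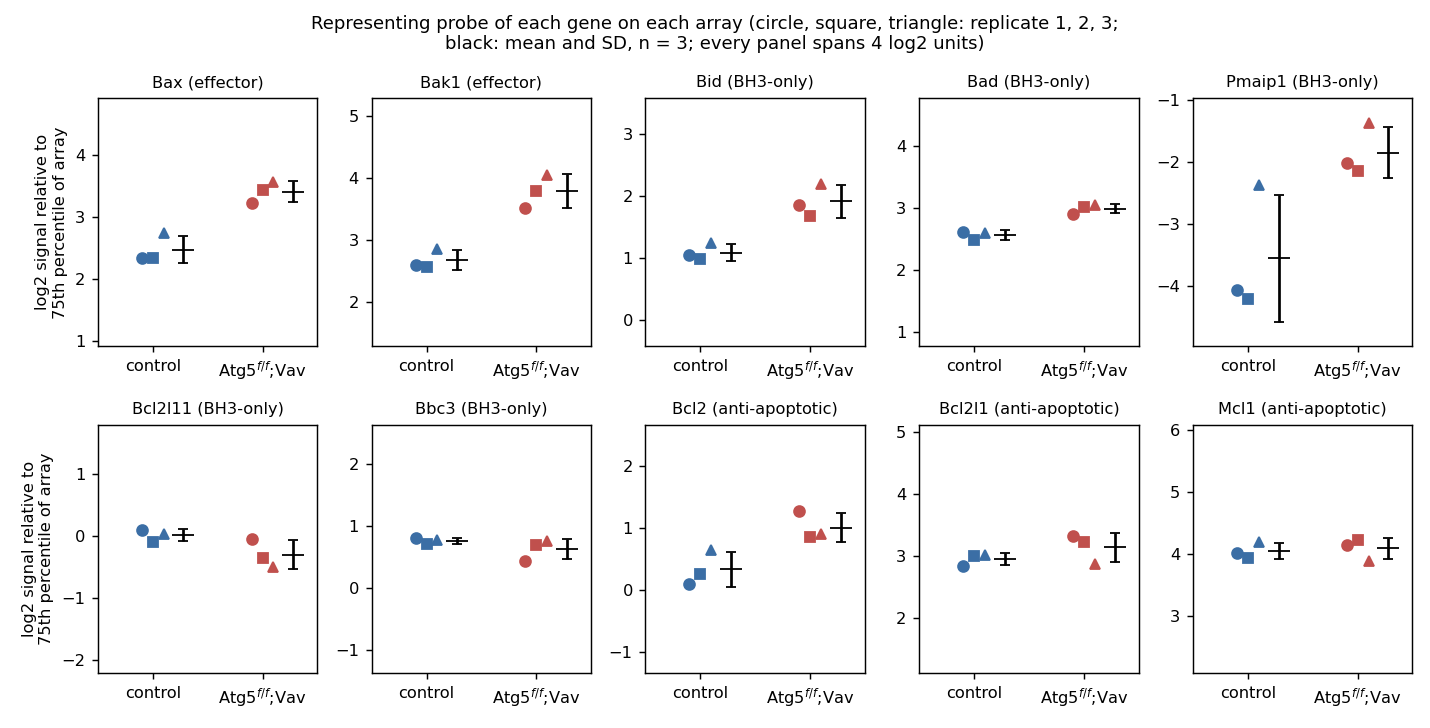
Log2 signal of the representing probe of each gene relative to the 75th percentile of its array, for 3 control (blue) and 3 Atg5f/f;Vav (red) arrays, with the mean and SD in black. Bax, Bak1, Bid, Bad, Pmaip1 and Bcl2 have groups that do not overlap, with all red points above all blue points, while Bcl2l11, Bbc3, Bcl2l1 and Mcl1 overlap.

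Both effector genes rose, and both probes of Bax gave the same picture. Bax, which moves from the cytosol into the mitochondrial membrane when activated, was represented by a probe at base 752 (chr7:52717122-52717181, mm9). In controls this probe read 2.35, 2.35 and 2.74, and in the Atg5f/f;Vav group 3.23, 3.44 and 3.57. The lowest Atg5f/f;Vav array stood above the highest control array. The difference was 0.93 ± 0.16 (SE), a 1.91-fold rise (limma adjusted p = 0.0151). The coding probe of Bax printed above read 0.26, 0.18 and 0.62 in controls against 1.32, 1.35 and 1.60. It rose by 1.07 ± 0.16 on the log2 scale (limma adjusted p = 0.0138), so the estimates from the 2 probes differed by less than 1 standard error of either. Bak1, the effector that resides in the mitochondrial membrane, was read by 1 probe at base 1892 (chr17:27156807-27156866, mm9). On the control arrays Bak1 stood at 2.60, 2.56 and 2.86, and on the Atg5f/f;Vav arrays at 3.51, 3.79 and 4.05. The groups were apart again, with a log2 difference of 1.11 ± 0.17 (SE), or 2.16-fold (limma adjusted p = 0.0142). Among all genes tested, 97.7% had a lower log2 fold change than Bak1 and 96.4% a lower one than Bax.

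The anti-apoptotic genes did not move together. Bcl2, the founding member of the family, was read by 3 probes, of which 2 were higher. The representing probe, at base 7109 of variant 1 (chr1:108434793-108434852, mm9), stood at 0.09, 0.25 and 0.64 in controls and at 1.26, 0.85 and 0.90 in the Atg5f/f;Vav group. That is a log2 difference of 0.67 ± 0.19 (SE), or 1.59-fold (limma adjusted p = 0.0333). The coding probe at base 1838 of variant 2 read 0.00, -0.06 and 0.28 against 0.81, 0.54 and 0.51. Its groups did not overlap, and it rose by 0.54 ± 0.14 on the log2 scale (limma adjusted p = 0.0297). At base 2387 the third probe of Bcl2 gave -1.43, -1.54 and -1.35 against -0.98, -1.27 and -1.42, groups that overlap, and a difference of 0.21 ± 0.14 that did not pass (limma adjusted p = 0.270).

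Mcl1, a protein of rapid turnover on which stem cells depend, did not pass the test on either probe. At the representing probe it read 4.02, 3.93 and 4.19 in controls and 4.15, 4.22 and 3.89 in the Atg5f/f;Vav group. The log2 difference was 0.04, with a 95% interval of -0.28 to 0.36 (limma adjusted p = 0.831), and its sign turned with quantile normalisation (-0.29). A change of the size seen in Bax or Bak1 lies outside that interval. The other probe of Mcl1 differed by -0.05, with an interval of -0.33 to 0.22 (limma adjusted p = 0.747). With quantile normalisation it differed by -0.37, outside that interval (limma adjusted p = 0.064).

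Bcl2l1, which encodes the long anti-apoptotic protein Bcl-xL and a short pro-apoptotic splice form, was read by 5 probes that spread in direction. The representing probe, at base 2563 of variant 1, stood at 2.85, 3.002 and 3.01 in controls and at 3.32, 3.22 and 2.87 in the Atg5f/f;Vav group, which overlap. It differed by 0.19, with a 95% interval of -0.16 to 0.54 (limma adjusted p = 0.347), and its sign turned as well with quantile normalisation (-0.079). The coding probe at base 493 of variant 4 was the 1 probe among the members that fell. It read -3.92, -4.11 and -4.54 in controls and -4.57, -5.16 and -5.15 on the Atg5f/f;Vav arrays, and was well above background on 3 control arrays and on 0 Atg5f/f;Vav arrays. The log2 difference was -0.77, with a 95% interval of -1.30 to -0.24 (limma adjusted p = 0.0381). With normexp background correction it was -0.24 and did not pass (limma adjusted p = 0.146). The size of this fall is therefore uncertain. The remaining 3 probes differed by -0.35 (base 175), -0.16 (base 720) and 0.05 (base 1419), with limma adjusted p of 0.301, 0.721 and 0.803. The coding probe at base 720 lies nearby on the same strand and had a standard error of 0.32.

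Among the BH3-only genes, Bid, Bad and Pmaip1 rose, and Bcl2l11 and Bbc3 did not pass. Bid, which links death receptors to mitochondria once cleaved by caspase-8, was represented by a probe at base 1504 (chr6:120843464-120843523, mm9). It read 1.06, 0.98 and 1.24 in controls and 1.86, 1.69 and 2.20 in the Atg5f/f;Vav group, without overlap. The log2 difference was 0.82 ± 0.16 (SE), or 1.77-fold (limma adjusted p = 0.0169). A second Bid probe, at base 376, was well above background on 2 control arrays and on 0 Atg5f/f;Vav arrays and was not tested. It read -5.16, -4.50 and -4.71 against -5.93, -5.79 and -4.61, which overlap, and no direction is read from it.

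Bad, which binds Bcl2 and Bcl2l1 unless phosphorylated by survival signals, varied little among arrays of a group (SD of 0.077 and 0.074, n = 3 each). It stood at 2.61, 2.47 and 2.60 in controls and at 2.90, 3.01 and 3.04 in the Atg5f/f;Vav group (base 1385, chr19:7026323-7026382, mm9). The groups did not overlap, and the rise was 0.42 ± 0.11 (SE) on the log2 scale, or 1.34-fold (limma adjusted p = 0.0268). With quantile normalisation the rise of Bad was only 0.16 (limma adjusted p = 0.223). Pmaip1, a partner of Mcl1 that promotes its degradation, had the largest log2 fold change of the 10 genes and the largest spread. Its probe read -4.07, -4.21 and -2.38 in controls and -2.02, -2.15 and -1.37 in the Atg5f/f;Vav group. Control replicate 3 stood far above the other 2 control arrays and just below the lowest Atg5f/f;Vav array. The log2 difference was 1.70 ± 0.49 (SE), or 3.26-fold (limma adjusted p = 0.0381), and 99.1% of all genes tested had a lower one. It was 0.99 with normexp background correction, below the 1.11 of Bak1 in that setting, and 2.29 without control replicate 3.

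Bcl2l11, a BH3-only gene with broad binding to anti-apoptotic members, was read by 4 probes, all with negative log2 fold changes that did not pass. That at base 682 turned to 0.18 with quantile normalisation and to 0.065 without Atg5f/f;Vav replicate 3. The representing probe, at base 4804 of variant 1, read 0.11, -0.09 and 0.03 in controls and -0.04, -0.35 and -0.50 in the Atg5f/f;Vav group. Replicate 1 of the Atg5f/f;Vav group lay among the controls, and the difference was -0.31 ± 0.15 (SE, limma adjusted p = 0.132). At base 450 of variant 4 the groups did not overlap, with -3.53, -3.95 and -3.65 against -4.01, -4.29 and -4.84. That probe differed by -0.67 ± 0.23 (limma adjusted p = 0.0589) and was well above background on 2 of the Atg5f/f;Vav arrays. The BH3 coding probe at base 682 differed by -0.17 and the probe at base 2204 by -0.26 (limma adjusted p of 0.563 and 0.168). When arrays were scaled to the 75th percentile of only those probes that stood above background on each of the 6 arrays, which moves the median of all probes from -0.06 to -0.27, the representing probe differed by -0.52 and passed (limma adjusted p = 0.038), as did the probes at bases 450 (-0.88) and 2204 (-0.46). Bbc3, a classical p53 target, read 0.80, 0.70 and 0.77 in controls and 0.44, 0.69 and 0.75 in the Atg5f/f;Vav group, which overlap. Its difference was -0.13, with a 95% interval of -0.42 to 0.15 (limma adjusted p = 0.406), and -0.34 under that other scaling (limma adjusted p = 0.045).

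**Figure D2:**
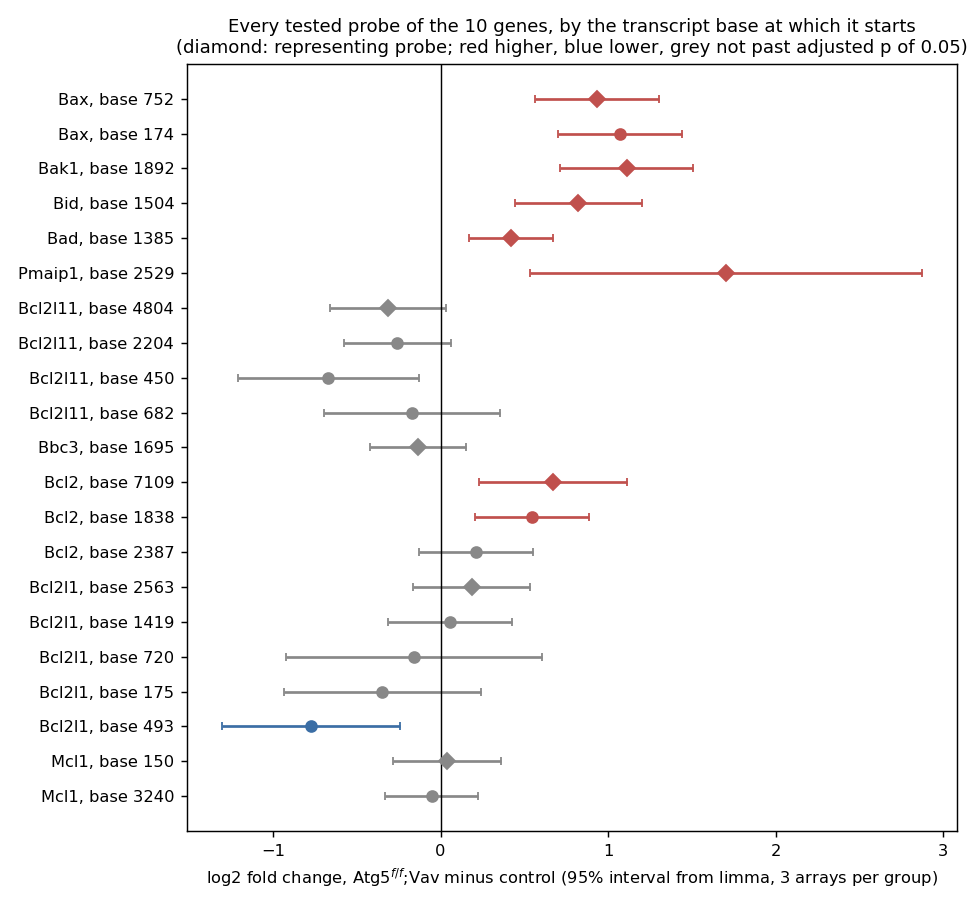
Log2 fold change (Atg5f/f;Vav minus control) of the 21 tested probes with the 95% interval from limma, labelled by gene and by the transcript base at which the probe starts. The 3 effector probes lie between 0.93 and 1.11, the 2 Mcl1 probes at 0.04 and -0.05, and the 4 Bcl2l11 probes to the left of 0, of which that at base 682 turns with quantile normalisation.

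The array values of the members that rose followed a common order within groups. Control replicate 3 was the highest control array for 5 of the 6 genes that were higher, with Bad the exception, and Atg5f/f;Vav replicate 3 was the highest of its group for 5 of the 6, with Bcl2 the exception. The same held for 83.7% and 87.5% of the 3887 genes that were higher, so this order was not particular to the family. Of the 9 erythroid markers, 7 were also highest on Atg5f/f;Vav replicate 3 within that group, and the globins Hba-a1 and Hbb-b1 were highest on replicate 2. Gata1, the master regulator of red cells, read 0.87, 0.38 and 0.95 in controls and 2.90, 3.73 and 4.56 in the Atg5f/f;Vav group, and Car1, a carbonic anhydrase of early red cells, rose by 3.80 on the log2 scale. In all, 5 erythroid markers rose (Car1, Gata1, Klf1, Tfrc and Epor) and 2 fell (Hba-a1 and Hbb-b1). The median level of the list ranged from 0.38 to 0.73 on control arrays and from 1.67 to 3.59 on Atg5f/f;Vav arrays, while its summed signal, in log2, ranged from 7.87 to 9.01 and from 6.65 to 7.40.

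Other markers moved with the groups too. Of the 9 LSK and stem cell markers, Ly6a (Sca1) rose by 1.57 and Hlf, Mecom and Procr fell, with log2 fold changes of -1.65, -1.75 and -1.56. Of the 11 neutrophil and monocyte markers 4 rose (Ctsg, Mpo, Prtn3 and Ly6g) and 4 fell (S100a8, S100a9, Ltf and Camp), and the summed log2 signal of the list ranged from 7.75 to 8.35 in controls and from 8.10 to 8.34 in the Atg5f/f;Vav group. Of the 7 stromal markers, 5 were tested and 3 were lower (Col1a1, Col1a2 and Sparc) without overlap, but the controls were split. Col1a1 read -4.14, 3.23 and 2.95 in controls and -5.23, -5.16 and -5.49 in the Atg5f/f;Vav group. It was well above background on 0 Atg5f/f;Vav arrays. Col1a2 read -0.90, 3.47 and 2.90 in controls and Sparc 0.63, 3.36 and 3.15, so control replicate 1 stood far below the other control arrays. The summed log2 signal of the list ranged from 1.52 to 4.97 in controls and from 0.02 to 0.76 in the Atg5f/f;Vav group. Of the endothelial markers, 3 were tested and 2 fell, Kdr with a log2 fold change of -1.42 and Emcn with -1.36. Among 5 megakaryocyte markers Itga2b rose by 1.17, while Gp9 and Ppbp fell, with log2 fold changes of -0.63 and -2.28. Ppbp was well above background on 3 control arrays and on 0 Atg5f/f;Vav arrays, so the size of its fall is uncertain. Of 6 B cell markers 1 rose (Cd79a, by 0.95). Cd79a was well above background on 1 control array and on 3 Atg5f/f;Vav arrays. It met the filter through the group where it was higher, and the size of its rise is uncertain. Of 4 T and NK cell markers tested, 0 passed in either direction. Col3a1 of the stromal list, Cdh5 of the endothelial list and Cd3g and Cd8a of the T and NK cell list were well above background on 0 arrays. The part of these cells in the differences of the family was not tested, and in RNA from a sorted pool of cells a change in the share of a cell type and a change in RNA per cell cannot be told apart.

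Because the members act by binding each other, the difference between partners was taken on each array for 8 pairs known to bind, which leaves out any factor that scales a whole array. Levels of different probes cannot be set against each other, so only the change of this difference between groups was read. With 3 arrays against 3, an exact permutation test cannot go below p = 0.1, and the Benjamini-Hochberg adjusted value over the 8 pairs cannot pass the threshold. Bak1 minus Mcl1 was -1.42, -1.37 and -1.33 on control arrays and -0.64, -0.43 and 0.16 on Atg5f/f;Vav arrays, higher by 1.07 without overlap (2-sided exact permutation p = 0.1, adjusted 0.16). Bak1 minus Bcl2l1 was higher by 0.93, also without overlap. Pmaip1 minus Mcl1 was higher by 1.66, from -7.59 ± 0.89 to -5.93 ± 0.59 (SD, n = 3), without overlap between groups.

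The pairs of Bcl2l11 differed in the other direction. Bcl2l11 minus Bcl2 was 0.02, -0.34 and -0.61 on control arrays and -1.30, -1.20 and -1.40 on Atg5f/f;Vav arrays, a difference of -0.99 (2-sided exact permutation p = 0.1, adjusted 0.16). Bcl2l11 minus Mcl1 differed by -0.35 without overlap (same p), and by -0.0055 with quantile normalisation. For the other 3 pairs the groups overlapped. Bax minus Bcl2 differed by 0.26 (2-sided exact permutation p = 0.4, adjusted 0.46), Bad minus Bcl2l1 by 0.23 (exact permutation p = 0.3, adjusted 0.40) and Bid minus Bax by -0.11 (exact permutation p = 0.6, adjusted 0.60). In all, 5 of the 8 pairs had groups that did not overlap, and among single probes 55.4% had such groups. The share of such differences over other pairs of probes was not computed, so this count is not read as particular to these pairs. Mcl1 differed by only 0.04, so its pairs with Bak1 and Pmaip1 largely repeat the changes of those genes (1.11 and 1.70). In Bcl2l11 minus Bcl2, the rise of Bcl2 (0.67) was larger than the difference of Bcl2l11 (-0.31), which did not pass.

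**Figure D3:**
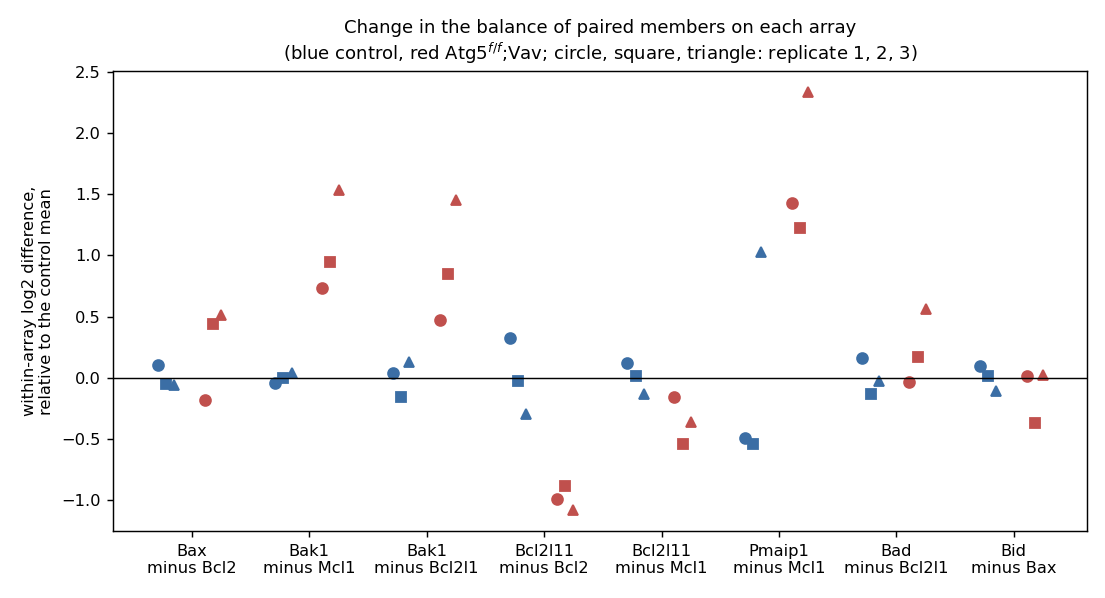
Difference in log2 signal between the 2 genes of each pair on each array, shown relative to the mean of the 3 control arrays (blue) so that the pairs share 1 axis. Bak1 minus Mcl1 and Bak1 minus Bcl2l1 lie above the controls on all 3 Atg5f/f;Vav arrays (red), Bcl2l11 minus Bcl2 lies below them on all 3, and Bax minus Bcl2 overlaps.

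Beyond the 10 genes, 18 further genes of the family or related to it by sequence or binding were looked up, of which 16 had a probe and 12 were tested. Of these 12, 1 was higher and 1 was lower, beside 18.7% and 15.3% of all genes, 10 did not pass, and the median log2 fold change was -0.09. Bcl2l13, a mitochondrial outer membrane protein that can act as a mitophagy receptor, stood at 0.75, 0.72 and 0.75 in controls and at 1.29, 1.60 and 2.26 in the Atg5f/f;Vav group. The log2 rise was 0.97 ± 0.24 (SE, limma adjusted p = 0.024), and its 2 other probes differed by 0.81 and 0.72. Bmf, a BH3-only gene linked to the cytoskeleton, read -2.06, -1.46 and -1.83 against -2.48, -2.61 and -3.42. It fell by 1.05 ± 0.28 on the log2 scale (SE, limma adjusted p = 0.029), and its other probe differed by -0.69. Bik, Hrk, Bcl2a1c and Bcl2l10 were well above background on 0 arrays. Bcl2a1d did not pass, and its probe cannot be told apart from near-identical copies of the gene.

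Around the family, 32 genes of the mitochondrial apoptosis pathway were listed, among them partners and transcriptional regulators of the members, and 30 were tested. Of these 30, 12 were higher and 3 were lower, beside 18.7% and 15.3% of all genes, and the median log2 fold change was 0.26 beside -0.03 over all genes. The proteins released from mitochondria and the caspase machinery held 6 of the genes that were higher among 9 tested, with a median of 0.56. This count rests on the brightest probe of each gene. For a gene among the 6, the 3 other probes differed by -0.18, 0.55 and -0.62. Cycs, which encodes cytochrome c, the trigger of the apoptosome and a carrier of the respiratory chain, stood at 3.86, 3.81 and 4.17 in controls and at 4.95, 4.92 and 5.43 in the Atg5f/f;Vav group. It rose by 1.15 ± 0.18 on the log2 scale (SE, limma adjusted p = 0.015). Endog, a mitochondrial nuclease, rose by 1.08 ± 0.19. Htra2, a mitochondrial protease that antagonises inhibitors of apoptosis, rose by 0.99 ± 0.24. The groups did not overlap in any of these 3 genes.

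Of the 5 inhibitors of apoptosis 1 rose and 1 fell. Birc5 (survivin), which also acts in cell division, rose by 0.89, and Birc3 fell by 0.48 ± 0.13 (limma adjusted p = 0.029). Of 7 partners and turnover factors tested, 2 rose, and these were Vdac2, a channel that holds Bak1 at the mitochondrion (0.83), and Ywhae, a phosphoserine-binding adaptor that can hold Bad in the cytosol (0.39). Among 9 regulators of transcription tested, 3 rose and 2 fell. Myc, a driver of growth, rose by 0.96, Atf4 by 0.66 and E2f1 by 0.46. Foxo1 and Foxo3, which activate Bcl2l11 and Bbc3 in other settings, fell by 0.63 ± 0.17 and 0.57 ± 0.12 (limma adjusted p of 0.034 and 0.019). Foxo3 read 1.52, 1.53 and 1.45 on control arrays and 1.02, 1.03 and 0.73 on Atg5f/f;Vav arrays, without overlap. Birc5, Vdac2, Ywhae, Myc, Atf4 and E2f1 are named after their values were seen.

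**Figure D4:**
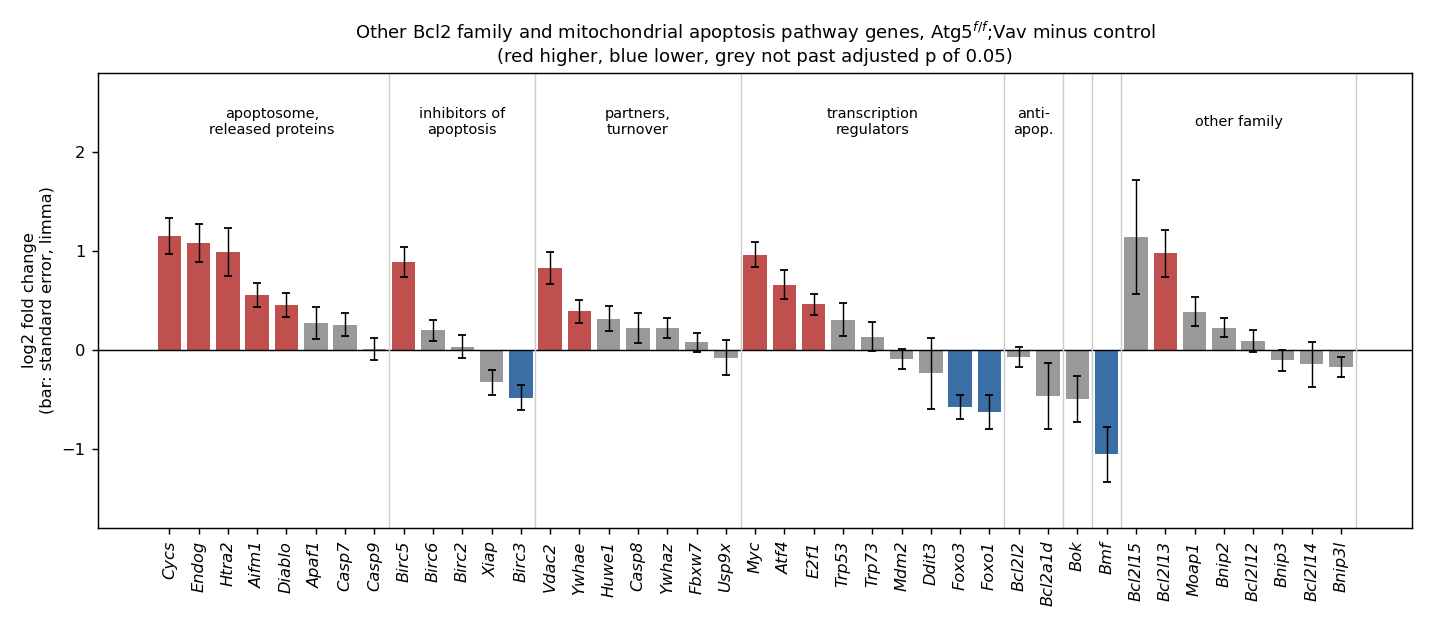
Log2 fold change (Atg5f/f;Vav minus control) of the tested genes of the mitochondrial apoptosis pathway and of the other Bcl2 family genes, by role, with the standard error from limma. Cycs, Endog and Htra2 reach 1.15, 1.08 and 0.99, 1 gene counted in the text is not drawn, and Foxo1, Foxo3, Birc3 and Bmf are the 4 genes that fell.

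Promoter sequence was read for the genes whose regulators are listed above. The RefSeq table (GRCm38.p6) held 15 start sites of 9 of the 10 genes, and the 250 bases before each start were searched on both strands for the E-box CACGTG, bound by Myc among others, for the forkhead motif GTAAACA, and for the p53 half-site. The E-box was found before 2 of the 15 starts (Bax and 1 start of Bbc3), the forkhead motif before 2 (1 start each of Bcl2l11 and Bbc3) and the p53 half-site before 1 (Bax). Over all 32851 promoters of the table, the shares were 6.02%, 3.17% and 7.13%. Bax, which rose on both probes, and Bcl2l11, whose 4 probes had negative log2 fold changes that did not pass, are shown with the matches in capitals. The Bax sequence (chr7:45466899-45467148, minus strand) has the half-site starting 201 bases before the start and the E-box 9 bases before it, which do not overlap. The Bcl2l11 sequence (chr2:128125788-128126037, plus strand) has the forkhead match 227 bases before the start, and the other Bcl2l11 start has none of the 3 motifs. A match is a description of these letters, and no binding was measured.
Bax promoter: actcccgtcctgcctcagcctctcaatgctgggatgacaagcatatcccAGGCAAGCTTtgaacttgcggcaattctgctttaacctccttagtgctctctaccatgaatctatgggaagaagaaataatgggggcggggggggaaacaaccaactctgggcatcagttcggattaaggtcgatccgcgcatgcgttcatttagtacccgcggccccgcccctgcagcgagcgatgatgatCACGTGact
Bcl2l11 promoter: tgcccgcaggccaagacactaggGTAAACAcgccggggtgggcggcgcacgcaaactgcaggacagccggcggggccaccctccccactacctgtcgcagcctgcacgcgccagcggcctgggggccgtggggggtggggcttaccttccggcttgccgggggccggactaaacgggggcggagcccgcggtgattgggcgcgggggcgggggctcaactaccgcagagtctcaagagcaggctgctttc

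The calls depended on control replicates 1 and 2. Without control replicate 1 or without control replicate 2, 0 of the 21 member probes passed in either direction with limma, while 1.03% and 0.783% of all probes did, and 8 member probes were higher at an unadjusted p of 0.05 in both cases, where 17.7% and 17.3% of all probes were. Bax then differed by 0.87 with an adjusted p of 0.066 or 0.070, and Bak1 by 1.08 or 1.05 with 0.065 or 0.068 (limma). Bax, Bak1 and Bid passed in each of the other 4 sets of 5 arrays. Bad and Bcl2 passed in 2 of the 6 sets and Pmaip1 in 1, the set without control replicate 3 (limma adjusted p = 0.023). The representing probes of Bad and Bcl2 also did not pass with quantile normalisation, with the other percentile or without the filter on dim probes. That of Pmaip1 did not pass without the filter, nor with the methods' t-test, even unadjusted. In the other lists, 0 of 30 pathway genes and 0 of 12 further family genes passed without control replicate 1 or without control replicate 2, where 11 and 12 pathway genes were higher at an unadjusted p of 0.05 (limma), beside 19.0% and 18.5% of all genes. The representing probes of Bcl2l13 and Bmf also did not pass without control replicate 3.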

How the data were processed

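RNA of LSK cells sorted into TRIzol was hybridised to 1-colour Agilent 60-mer arrays designed on mm9, with 1 array per sample, grouped by the sample labels. The authors deposited scanner files whose intensity per spot had been background-corrected and detrended by Feature Extraction 12.0.3.1 (per the labels), without scaling between arrays, and a table of normalised signal. This deposited signal, used as an alternative, was checked to be the intensity divided by 1 factor per array. After control spots and those flagged as outliers (64 to 81 on an array) had been dropped, spots of a probe were averaged, and log2 intensity was taken minus the 75th percentile of each array, which lay between 620.3 and 881.4. Saturation was found at 0 spots. The test was limma 3.58.1 (R 4.3.3, moderated, 2-sided) on the 32075 probes that were well above background on 3 or more arrays, with Benjamini-Hochberg adjustment and a threshold of 0.05. It was run on simulated data with noise drawn independently for each probe, which does not cover effects shared by an array. The methods name no test for single genes of the arrays. Arrays give no read depth, and precision is limited by their number. The naming rule took all members with every probe, at most 4 genes each way with the largest change of each other list, and markers that passed, and 6 further pathway genes were named after their values were seen. Of the pathway list, 1 gene of the pathway list enters the counts but is not reported here. The members and lists were chosen with earlier results of these data known. Alternatives were normexp (offset 50), quantile normalisation, another percentile, the deposited values, 2 other filters, outlier spots kept, an intensity trend, the replicate number as a block, the methods' t-test, the probe mean per gene and each array left out. Slide and scan could not be fitted as blocks, since all arrays shared both.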

Additional observations from a re-analysis of the deposited data

How the results depend on the processing

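Bax, Bak1, Bid, Bad, Pmaip1 and Bcl2 kept a positive log2 fold change under every alternative tried, and Bax, Bak1 and Bid stayed past the threshold in all but the sets without control replicate 1 or 2 and the methods' t-test after adjustment. Of 21 member probes, 5 were higher with the 75th percentile over probes well above background on all 6 arrays, 4 (of 22 then tested) without a filter on dim probes and 0 (7 unadjusted, where 22.6% of all probes were higher) with the methods' t-test after Benjamini-Hochberg adjustment. The 1 that was lower became 5 under that percentile and 0 with normexp, quantile normalisation, no filter, the filter on all 6 arrays (18 tested, without the probe that fell), the intensity trend or the methods' t-test after adjustment. That percentile moves the median of all probes from -0.06 to -0.27 and the calls over all probes from 5540 higher and 5483 lower to 3371 and 10089. Under it Bcl2l11 (-0.52) and Bbc3 (-0.34) passed as lower. Bcl2l1 turned to -0.079 with quantile normalisation, -0.020 with that percentile and -0.21 as the mean of its probes. Mcl1 turned to -0.29, -0.17 and -0.0057 in the same order and ranged from -0.027 (without Atg5f/f;Vav replicate 2) to 0.14 (without Atg5f/f;Vav replicate 3) as arrays were left out. Bid minus Bax turned to 0.0085 with quantile normalisation and ranged from -0.18 (without Atg5f/f;Vav replicate 3) to 0.017 (without Atg5f/f;Vav replicate 2). Of the other Bcl2 family, 2 genes were higher with quantile normalisation, 2 were lower with the other percentile, 2 were higher and 2 lower with the unadjusted methods' t-test, and 0 in either direction without a filter or with the adjusted one. Pathway genes that were higher numbered 7 with quantile normalisation, 6 without a filter and 0 with the adjusted t-test, and those lower 0 and 0 with the last 2. Leaving out 1 array each gave 0 to 7 higher and 0 to 3 lower member probes, 0 to 2 higher and 0 to 2 lower genes of the other family, 0 to 12 higher and 0 to 3 lower pathway genes, and 5 to 7 pairs without overlap. Deviations from the group means had correlations of -0.07, 0.28 and 0.07 between same-numbered arrays, and of -0.36 to 0.17 between the others. Deviations from a mean of 3 arrays are tied to each other, so these values cannot decide whether the samples were paired. With the replicate numbers as a block, 6 member probes were higher and 1 lower, and Bcl2 did not pass (limma adjusted p = 0.070). The cause of these changes was not tested. Probes near background, such as those of Pmaip1 and the dim ones of Bcl2l1 and Bcl2l11, limit what can be read.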
